A study of Mus musculus with 9 samples.

Results

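The cells described here are mesenchymal cells of the mouse forelimb bud that held at least 2 unique molecular identifiers (UMIs, tags that count single transcripts) of *Sostdc1*. They are called *Sostdc1* cells below. They were selected on measured counts in the single-cell RNA-seq matrices of 9 libraries. A barcode had to show over 2500 genes, a total below 200000 UMIs and a mitochondrial share under 10%. It also had to hold at least 3 UMIs of *Prrx1*, a transcription factor of limb mesenchyme, and no UMI of *Lbx1*, *Epcam*, *Cdh5* and *Tyrobp*, which mark muscle progenitors, epithelium, endothelium and myeloid cells. Cells with a UMI of *Shh*, *Pax1*, *Emx2* or *Hoxa13*, genes of the posterior margin, the anterior proximal bud and the distal bud, were left out. Of 133086 deposited barcodes 52432 passed the filters, 34671 of these were mesenchymal by the genes above, 23837 lacked the region genes, and 1249 were *Sostdc1* cells. They made up 3.60% of the mesenchymal cells. A total of 754 of them, 60.4%, held at least 1 UMI of *Hgf*.

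Each library was made from a single pair of forelimb buds at E10.75 (37 to 39 somites), from mice bred into a Swiss Albino background. There were 3 libraries of wild-type embryos (Wt) and 3 each of embryos homozygous for *EC1CRM8*Δ/Δ (*E1C8*Δ/Δ) or *EC1CRM5*Δ/Δ (*E1C5*Δ/Δ). Both alleles delete cis-regulatory enhancers of *Grem1*, which encodes an extracellular inhibitor of bone morphogenetic proteins (BMPs), in the germ line and so in every cell of the embryo. The mutants keep part of their *Grem1* expression, so they are not nulls. *Xist* and Y-linked genes marked all 3 Wt libraries as male, while only *E1C8*Δ/Δ replicate 3 and *E1C5*Δ/Δ replicate 2 were male among the mutants. Wt replicate 1 and *E1C8*Δ/Δ replicate 3 also held some *Xist*, at 30.6 and 10.4 CPM against 654 to 944 in the female libraries. The effects of sex and of the deletions can be told apart only in part.

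SOSTDC1 is a secreted protein that binds BMPs and the WNT co-receptors of the LRP family, and so it dampens both pathways. HGF is a secreted growth factor whose receptor, the tyrosine kinase MET, sits on the muscle progenitors that leave the somites, and mesenchymal HGF is required for these cells to detach and to migrate into the limb bud. EBF2 is a transcription factor of connective tissue and fat precursors, and NPR3 is the receptor that clears natriuretic peptides. The proximal limb mesenchyme gives rise to tendon, muscle connective tissue and the proximal skeleton, while the distal mesenchyme is kept proliferating by fibroblast growth factors (FGFs) of the apical ridge.

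The libraries held 26620760 to 500559729 UMIs, and 604 to 9917 barcodes per library passed the filters. There were 163, 224 and 49 *Sostdc1* cells in the Wt libraries, 20, 200 and 316 in *E1C8*Δ/Δ and 100, 30 and 147 in *E1C5*Δ/Δ. *E1C8*Δ/Δ replicate 1, Wt replicate 3 and *E1C5*Δ/Δ replicate 2 were the smallest libraries, and their values rest on few cells. The *Sostdc1* cells had a median of 35524 UMIs, against 26780 in the cells that passed the same criteria with no *Sostdc1* UMI (20434 cells, called *Sostdc1*-0 cells), and the order was the same in every library. Barcodes called as doublets made up 18.3% of the *Sostdc1* cells and 8.98% of the *Sostdc1*-0 cells. Doublets were kept, since the rule for these cells names no such filter, and the tests of shares and of expression, except the interaction at the end, were repeated without them. The descriptions of shares by other genes and by *Sostdc1* UMIs were not. Of the barcodes of *Sostdc1* cells 24 also occurred in another library, and 2 were *Sostdc1* cells in both. The marks of limb mesenchyme were in place: across libraries *Pdgfra* was detected in 80.5% to 100.0% and *Tbx5* in 86.5% to 100.0% of the *Sostdc1* cells.

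The 3 other genes given as markers were each detected in the *Sostdc1* cells, *Hgf* in 46.9% to 70.0%, *Ebf2* in 40.0% to 55.8% and *Npr3* in 10.0% to 26.7% of the cells per library. *Npr3* was thus not detected in most of them, which at its low level does not show that they lack it. Of the *Sostdc1* cells 656, or 52.5%, lay at the threshold with exactly 2 UMIs, and 2154 cells lay just outside it with 1 UMI. *Hgf* was detected in 53.2% of the cells just inside the threshold and in 43.9% of the cells just outside it. The *Sostdc1* cells held 48.3% of all *Sostdc1* UMIs of the mesenchymal cells. They held 8.88% of the mesenchymal *Hgf* UMIs and 4.44% of all mesenchymal UMIs, so most *Hgf* transcripts came from other mesenchymal cells.

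Whether a cell shows a UMI of a gene depends on its depth, so shares were compared after each cell had been thinned at random to 10000 UMIs (10 *Sostdc1* cells were shallower and were left out). The question was whether *Hgf*, which the choice of cells did not use, was more frequent in them than in the *Sostdc1*-0 cells of the same library. *Hgf* was given as a marker of these cells with these data in view, so the test is no independent evidence. The share with *Hgf* in *Sostdc1* cells was 31.6%, 28.9% and 14.3% in the Wt libraries, 28.2%, 28.5% and 29.7% in *E1C8*Δ/Δ and 25.8%, 27.2% and 29.4% in *E1C5*Δ/Δ. In *Sostdc1*-0 cells it was 13.6%, 11.5% and 6.25% in Wt, 14.2%, 10.9% and 12.8% in *E1C8*Δ/Δ and 12.1%, 12.2% and 17.5% in *E1C5*Δ/Δ. The *Sostdc1* cells were the higher of the pair in all 9 libraries, and Wt replicate 3 was the lowest library in both. The difference was 14.7 ± 3.26 percentage points (SD over 9 libraries, range 8.03 to 18.0; two-sided exact permutation of signs within libraries, p = 0.00391, the smallest p that 9 pairs can give). On all UMIs the shares were 60.1% ± 9.03 and 26.9% ± 6.06 (SD, n = 9 libraries), a difference of 33.2 ± 6.25 points with the same p.

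Free RNA in the droplets gives UMIs in cells that do not make a transcript. In erythroid cells, which should lack *Hgf*, the thinned share was 0.896% to 3.59% with a median of 1.91% (8 libraries, since *E1C8*Δ/Δ replicate 1 held only 11 such cells), and on all UMIs it was 2.99% to 13.8%. The median depth of the erythroid cells was 34655 UMIs, close to that of the *Sostdc1* cells. The *Sostdc1* cells lay above this background in each of the 8 libraries, as did the *Sostdc1*-0 cells. *Met*, the gene of the HGF receptor, was detected in 80.2% to 94.2% of the muscle progenitors (cells with *Lbx1*, 2779 in all) but in 3.33% to 6.25% of the *Sostdc1* cells, where its level was 0.612 to 2.58 CPM (the UMIs of a gene scaled to the total of the summed cells). *Hgf* itself was detected in 11.5% to 28.5% of the muscle progenitors on all UMIs and in a median of 4.77% after thinning.

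**Figure D1:**
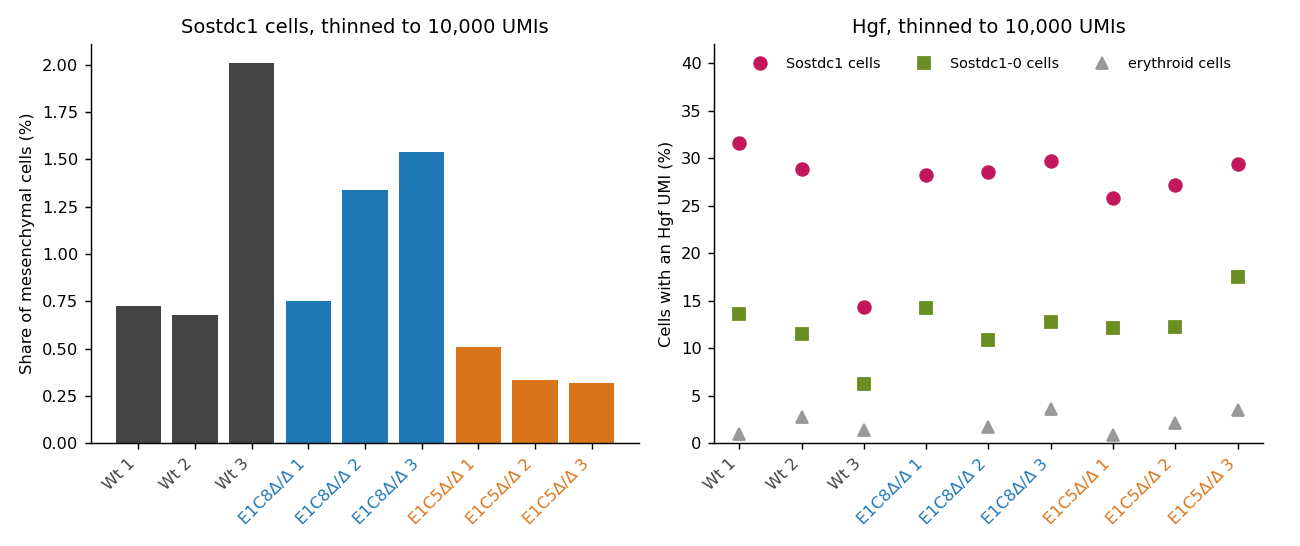
Left, share of *Sostdc1* cells among mesenchymal cells (%) in each of the 9 libraries, all criteria read on counts thinned to 10000 UMIs. Right, share of cells with an *Hgf* UMI (%) after thinning to 10000 UMIs, as 1 point per library for *Sostdc1* cells, *Sostdc1*-0 cells and erythroid cells. The cells on the right were chosen on all UMIs, so the *Sostdc1* cells of both panels are not the same set. The *Sostdc1* cells lie above the *Sostdc1*-0 cells in each library. Wt replicate 3 has the highest share of *Sostdc1* cells on the left (2.01%) and the lowest share of *Sostdc1* cells with *Hgf* on the right (14.3%).

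The share with *Hgf* was higher in cells with more *Sostdc1* UMIs. Pooled over the libraries and thinned, it was 13.2% at 0 UMIs of *Sostdc1*, 20.7% at 1, 25.1% at 2, 29.4% at 3 to 4 and 38.5% at 5 or more (20434, 2154, 656, 397 and 196 cells). The libraries with enough cells overlapped between neighbouring steps, with 6.25% to 17.5% at 0 (9 libraries), 15.2% to 26.3% at 1 (8 libraries), 16.7% to 31.5% at 2 (6 libraries) and 22.9% to 38.5% at 3 to 4 (6 libraries). At 5 or more only 3 libraries had enough cells, and they lay at 43.4% to 45.8%, above the pooled value. *Ebf2* went from 9.60% to 36.1%, *Gsc* from 19.7% to 50.2% and *Osr1* from 10.9% to 39.1% over the same steps, each in the same order. *Npr3* went from 1.12% to 6.04% at 3 to 4 UMIs and was 4.68% at 5 or more, so its last steps were not in order. These are descriptions of pooled cells, without a test. The median depth before thinning also went up from step to step, from 26780 to 43584 UMIs, and its part in the order was not tested.

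**Figure D2:**
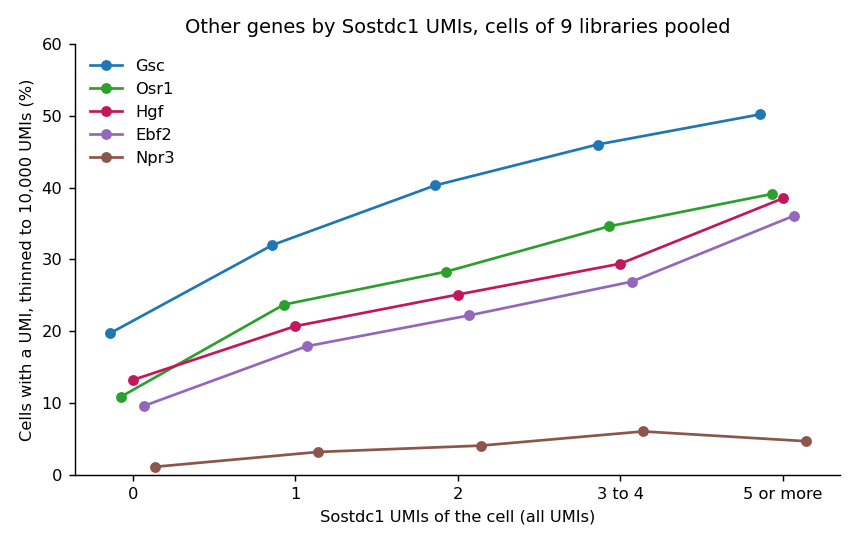
Share of cells with a UMI of *Gsc*, *Osr1*, *Hgf*, *Ebf2* or *Npr3* (%, counts thinned to 10000 UMIs) against the number of *Sostdc1* UMIs of the cell, cells of 9 libraries pooled. The first 4 genes are higher at each further step, and *Hgf* goes from 13.2% to 38.5%.

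Within the *Sostdc1* cells, *Hgf* did not go evenly with the other genes. In all 7 libraries with enough cells, the thinned share with *Hgf* was higher among cells with *Meox2*, a homeobox gene of somite and limb muscle development (median over libraries 36.1% with and 22.5% without it). It was also higher in every library compared among cells with *Ebf2* (37.5% and 26.9%, 6 libraries), with *Scx*, the transcription factor gene of tendon progenitors (31.9% and 24.1%, 6 libraries), and with *Irx3*, a homeobox gene of the proximal and anterior bud (37.2% and 25.8%, 6 libraries). The order was the opposite for the posterior transcription factor genes *Hand2* (26.2% with and 37.0% without, lower in 6 of 6 libraries) and *Tbx3* (23.1% and 32.2%, lower in 7 of 7). With *Osr1*, a gene of muscle connective tissue and of the posterior bud, the share was 28.1% and 29.9%, and it was higher in 2 of 6 libraries. With the cartilage gene *Sox9* the share was higher in 1 of 7 libraries. These shares carry no p, since cells of a library are not replicates.

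The genes were also counted in pairs in the same cells. After thinning, the median over the 9 libraries was 14.6% of cells with both *Gsc* and *Osr1*, 31.0% with *Gsc* alone, 15.9% with *Osr1* alone and 42% with neither. *Hgf* and *Ebf2* were found together in 8.54% of the cells, *Hgf* alone in 18.6%, *Ebf2* alone in 16.8% and neither in 56.5%. *Hgf* and *Scx* were found together in 17.6%, and *Scx* without *Hgf* in 40.1%. A thinned cell shows only part of its transcripts, so a gene that is not seen in it need not be absent, and these shares do not show separate kinds of cells.

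To find the other genes of these cells, the UMIs of *Sostdc1* and of *Sostdc1*-0 cells were summed per library and compared within libraries by edgeR's quasi-likelihood test with Benjamini-Hochberg adjustment, without the genes of the rule. Of 13275 genes tested, 1914 (14.4%) passed the threshold of 0.05, 864 higher and 1050 lower in *Sostdc1* cells. The higher genes included the given markers *Hgf*, *Ebf2* and *Npr3*. Also higher were *Osr1*, *Meox2* and *Scx* of the list for tendon and connective tissue, and proximal genes such as *Meis2* and *Pkdcc*. The lower ones included distal genes such as *Msx1*, *Lhx2* and *Lhx9*. *Meox2* is not particular to connective tissue here. On all UMIs it was detected in 81.3% to 91.4% of the muscle progenitors and in 55.8% to 80.0% of the *Sostdc1* cells per library.

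The level of *Hgf* in *Sostdc1* cells was 40.7, 40.4 and 20.2 CPM in Wt, 33.0, 33.7 and 37.3 in *E1C8*Δ/Δ and 33.6, 34.4 and 39.3 in *E1C5*Δ/Δ, and 7.51 to 20.1 CPM (median 14.8) in *Sostdc1*-0 cells. All 9 libraries were higher in *Sostdc1* cells, and the lowest value, that of Wt replicate 3, only just exceeded the highest *Sostdc1*-0 value. The mean was 2.34-fold higher (log2 fold change 1.25 ± 0.06 SE, adjusted p = 2.26e-13). *Ebf2* was at 18.0 to 45 CPM (median 33.9) against 7.10 to 24.5 (median 10.9), higher in each library, with a log2 fold change of 1.45 ± 0.07 (adjusted p = 7.04e-13). *Npr3*, although the largest of these by fold (2.15 ± 0.21, adjusted p = 4.47e-08), was a low gene, at 1.53 to 7.25 CPM (median 5.24) against 0.323 to 6.07 (median 1.22). Its *E1C8*Δ/Δ replicate 1 went the other way, with 2.75 CPM in 20 *Sostdc1* cells and 6.07 CPM in the *Sostdc1*-0 cells. The markers were proposed with these data in view and so are no independent test of themselves.

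*Osr1* rose from 7.85 to 26.7 CPM (median 19.2) in *Sostdc1*-0 cells to 26.2 to 77.8 CPM (median 46.5) in *Sostdc1* cells, higher in every library (log2 fold change 1.56 ± 0.11). *Gsc*, a homeobox gene of the proximal bud, had 37.7 to 167 CPM against 20.0 to 80.7 (1.12 ± 0.07), and the ranges overlap although each library was higher in *Sostdc1* cells. *Scx* had 49.1 to 160.1 CPM against 24.6 to 85.9 (0.97 ± 0.05), and *Meox2* 41.2 to 123 against 25.8 to 50.4 (0.91 ± 0.06). Among the 10 largest increases by the fixed rule for named genes were also *Rgcc*, a regulator of the cell cycle (1.81 ± 0.09), *Nrtn*, a neurotrophic ligand of the GDNF family (1.29 ± 0.08), *Cntfr*, the receptor of ciliary neurotrophic factor (1.26 ± 0.09), *Dlk1*, an imprinted gene of a Notch-related inhibitor of fat differentiation (1.26 ± 0.06), *Limch1* (1.18 ± 0.05) and *Itm2a* (1.16 ± 0.06). Each of these was higher in 9 of 9 libraries, which the rule itself asks for.

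Under the same rule, which asks for a mean of at least 20 CPM and 1 direction in all libraries, the 10 largest decreases included genes of the distal bud. *Msx1*, a homeobox target of BMP signalling, had 17.3 to 60.7 CPM (median 31.5) in *Sostdc1* cells against 84.2 to 173 (median 145) in *Sostdc1*-0 cells, without overlap, and fell by 1.90 ± 0.11 on the log2 scale. The LIM-homeobox genes *Lhx2* (27.5 to 75 against 103 to 198 CPM) and *Lhx9* (51.6 to 122 against 181 to 306 CPM) were also separate, with log2 fold changes of -1.59 ± 0.06 and -1.55 ± 0.07. *Sall3*, *Zic2*, *Zic5*, *Lmo1*, *Msx2*, *Cyp26b1*, which breaks down retinoic acid, and *Etv5*, a target of FGF signalling, fell by 1.73, 1.68, 1.61, 1.38, 1.25, 1.48 and 1.21 on the log2 scale, lower in 9 of 9 libraries.

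**Figure D3:**
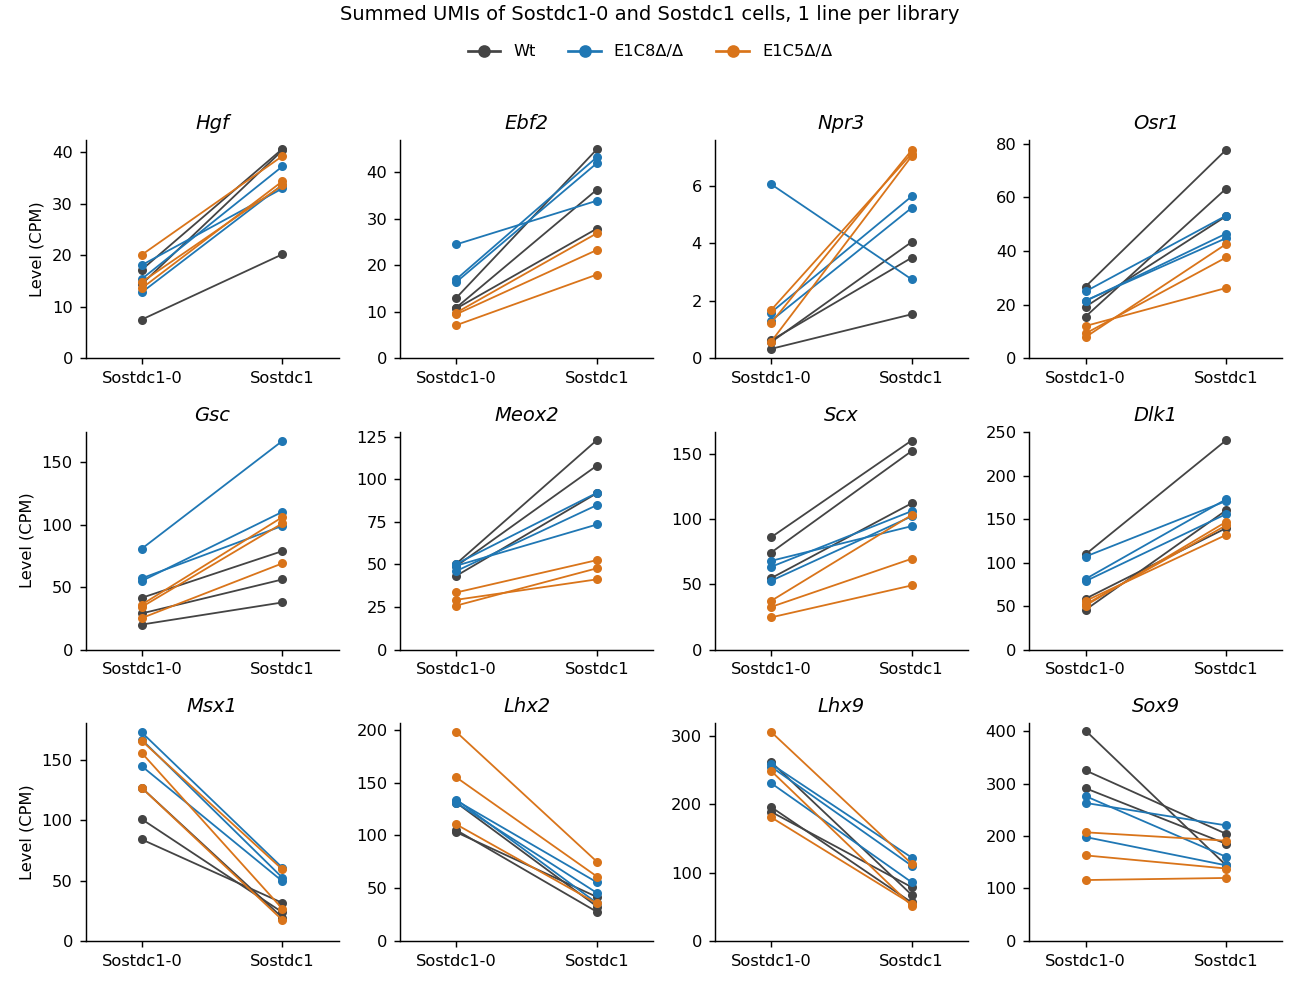
Level (CPM of summed UMIs) of 12 genes in *Sostdc1*-0 cells and in *Sostdc1* cells, 1 line per library, coloured by genotype. *Hgf*, *Ebf2*, *Osr1*, *Gsc*, *Meox2*, *Scx* and *Dlk1* go up and *Msx1*, *Lhx2* and *Lhx9* go down in all 9 libraries, while *Npr3* and *Sox9* each have 1 library that goes the other way.

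By gene list, where 14.4% of all genes were called, 9 of 13 proximal genes were higher and 3 lower (median log2 fold change 0.39, against -0.01 over all genes tested). *Meis1* (0.43 ± 0.04) and *Meis2* (0.98 ± 0.04), the homeobox genes that define the proximal limb, *Irx3* (0.39 ± 0.06) and *Irx5* (0.54 ± 0.06) were among the higher ones, while *Tbx15* (-0.51) was lower. None of 19 distal genes was higher and 16 were lower (median -1.40), while *Hoxd12* (0.08 ± 0.09), *Hoxd13* (-0.16 ± 0.09) and *Hoxd11* (0.08) did not pass. Both sets of cells had been chosen without *Hoxa13* UMIs. Of 10 posterior genes 7 were higher, such as *Tbx3* (0.80 ± 0.06), *Prdm1* (1.5 ± 0.10) and *Hand2* (0.48 ± 0.05), and 2 were lower. Several of these 9 calls were lost when a library was left out: *Gli1* (0.27) without Wt replicate 1, *Dkk1* (-0.31) without *E1C5*Δ/Δ replicate 1 or *E1C8*Δ/Δ replicate 3, *Hhip* (-0.46) without any one Wt library or *E1C8*Δ/Δ replicate 2 or 3, and *Ptch1* (0.16) without any one Wt library, *E1C8*Δ/Δ replicate 2 or *E1C5*Δ/Δ replicate 2 or 3. Of 9 anterior genes 6 were lower, such as *Alx4* (-1.03 ± 0.10), and the 2 higher ones were *Irx3* and *Irx5*, which also stand on the proximal list. All 7 tested genes of a list for cluster M1, among them *Hgf* and *Ebf2*, were higher. That list was drawn by the study from these libraries, so it is not independent evidence. The other lists were chosen with earlier results of these data known and share genes with it, so their counts are not independent either.

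Of 26 genes of tendon and connective tissue 13 were higher and 4 lower, beside 14.4% of all genes called in either direction. Of this list *Ebf2*, *Meox2*, *Scx* and *Osr1* also stand on the list for cluster M1, so the count is not independent evidence. *Col3a1* (0.49 ± 0.03), *Ebf3* (0.40 ± 0.06) and *Postn* (1.24 ± 0.30, at 2.00 CPM) rose, while *Tcf7l2*, a transcription factor gene of muscle connective tissue, fell by 0.50 ± 0.03 and *Osr2* did not pass (0.03 ± 0.08). Of 14 cartilage genes 2 were higher (*Gsc* and *Creb5*) and 6 lower, with *Sox9* at -0.53 ± 0.09 and *Sox6* at -1.32. The call of *Col2a1* (-0.34 ± 0.10, adjusted p = 0.0271) was lost with DESeq2 and without any one of Wt replicates 1, 2 and 3 and *E1C8*Δ/Δ replicates 2 and 3.

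On the HGF and MET list, which holds genes that guide muscle progenitors, 3 of 9 tested were higher and 1 lower, a count of few genes against 14.4% of all genes called. Beside *Hgf* these were *Cxcl12*, a chemokine (21.5 to 40.7 against 15.0 to 32.8 CPM, log2 fold change 0.31 ± 0.07), and *Tbx5*, the forelimb identity gene (0.21 ± 0.03), while *Epha4*, a receptor of ephrin repulsion, fell by 0.60 ± 0.07. *Met* (-0.06 ± 0.19), *Efna5* (0.13 ± 0.05) and the HGF activator inhibitor *Spint2* (0.12 ± 0.07) did not pass. With a threshold of 3 *Sostdc1* UMIs the calls of *Cxcl12*, *Postn* and *Smoc1*, a BMP antagonist, were lost.

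In this comparison 14.4% of all genes were called, and the lists of signalling genes are to be read against that share. Of 11 BMP targets none was higher and 8 were lower, among them *Id1* (-0.52 ± 0.05), *Id2* (-0.33 ± 0.04), *Id3* (-0.42 ± 0.05) and *Bambi* (-0.57 ± 0.05). Among 15 ligands, receptors and SMADs 3 were higher and 5 lower, and *Bmp4*, the main mesenchymal ligand, did not pass (0.02 ± 0.05). Of 9 other secreted BMP antagonists 4 were higher and 2 lower: *Nbl1* (0.68 ± 0.14) and *Smoc1* (0.31 ± 0.08) rose, *Grem1* (-0.59 ± 0.09) and *Nog* (-1.34 ± 0.27, a mean of 0.687 against 1.53 CPM) fell. *Grem1* had 1.83 to 34.6 CPM against 13.4 to 47.5, with overlap. WNT genes moved both ways: of 18 receptors and co-receptors 4 were higher and 3 lower, and of 16 inhibitors and targets 4 were higher and 4 lower, with *Dkk2* at 0.99 ± 0.11 and *Frzb* at -0.90. Of 14 FGF genes 10 were lower, such as *Spry4* (-1.45 ± 0.10), *Spry1* (-1.03 ± 0.09), *Dusp6* (-0.53 ± 0.05) and *Fgf10* (-0.48 ± 0.06), while the receptor gene *Fgfr2* rose (0.96 ± 0.09). Of 10 genes of retinoic acid 3 were higher, with the receptor gene *Rarb* at 0.52 ± 0.10, and 5 lower.

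Markers of other cells were summed per library. Summed erythroid markers had 166 to 14349 CPM (median 858) in *Sostdc1* cells against 914 to 15396 (median 5198), higher in 1 library, and 6 of 7 were lower. Summed Schwann and neural crest markers had 43.1 to 63.3 against 34.9 to 45.2 CPM, higher in 9 of 9 libraries, with *Ets1* (0.50), which endothelium also expresses, as the 1 of 2 tested that was called. Stress genes had 2802 to 3219 against 2571 to 3092 CPM, also higher in 9 of 9, and 7 of 11 tested were called higher and 1 lower. Their part in the comparison was not tested. Summed epithelial markers (4.69 to 14.9 against 6.45 to 26.5 CPM) were higher in *Sostdc1* cells in 1 of 9 libraries, with a median ratio of 0.721, muscle markers (0.917 to 14.9 CPM) in 2, endothelial markers (13.7 to 22.0 CPM) in 3 and myeloid markers (0.383 to 4.05 CPM) in 5. Of the 15 muscle, epithelial, endothelial and myeloid genes tested none was called higher, which with so few genes is no result about these cells. Flank and somite markers had 9.71 to 45 against 14.1 to 38.5 CPM, higher in 2 of 9. These counts stand beside 14.4% of all genes called. Of 17 cell cycle genes 7 were higher, none by more than 0.21 on the log2 scale, and 1 was lower.

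Many *Sostdc1* cells held *Osr1* or *Gsc*, so they were set against cells with at least 2 UMIs of either gene and no *Sostdc1* UMI, which passed the same criteria. Against the 1951 *Osr1* cells 701 of 12673 genes (5.53%) passed, 363 higher and 338 lower. *Hgf* had 20.2 to 40.7 CPM in *Sostdc1* cells and 9.0 to 31.4 (median 20.1) in *Osr1* cells, higher in each library (log2 fold change 0.79 ± 0.07, adjusted p = 2.65e-08). *Ebf2* (1.21 ± 0.11), *Irx3* (0.87 ± 0.09), *Tgfb2*, a ligand of tendon induction (0.85 ± 0.07), *Cdon*, a co-receptor of Hedgehog ligands (0.68 ± 0.06), *Gsc* (0.68 ± 0.08) and *Scx* (0.58 ± 0.05) were higher as well. Posterior genes were lower, 7 of 9 and none higher, with *Dkk1*, a secreted WNT inhibitor, at -1.08 ± 0.11, *Hoxd12* at -0.94 ± 0.10, *Hoxd13* at -0.93 ± 0.09 and *Tbx2* at -0.64 ± 0.07, while 5 of 8 anterior genes were higher. The comparison cells were chosen by *Osr1*, itself a gene of the posterior list, so these counts are not independent of that choice. *Lmx1b*, the dorsal identity gene, had a log2 fold change of -1.01 ± 0.09. The other lower genes named by the rule were *C130021I20Rik* (-1.12), *Nrp2*, a receptor of semaphorins (-0.92), *Fibin* (-0.82), the ephrin gene *Efnb2* (-0.71), the nuclear receptor gene *Nr2f2* (-0.65) and *Map1b* (-0.64), and the other higher ones were *Irx5* (0.64), *Pkdcc* (0.61), *Sept6* (0.43), *Tiam1* (0.36) and *Sox5* (0.36). *Npr3* did not pass (0.71 ± 0.26, adjusted p = 0.130). The number of genes called was 423 without Wt replicate 2 and 445 without *E1C8*Δ/Δ replicate 3.

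Against the 3633 *Gsc* cells 3730 of 12759 genes (29.2%) passed, 2124 higher and 1606 lower. *Hgf* was higher again in each library (11 to 36.8 CPM in *Gsc* cells, log2 fold change 0.67 ± 0.09, adjusted p = 2.88e-06), but *Ebf2* was lower in each library (29.7 to 78.2 CPM in *Gsc* cells, -0.42 ± 0.07). *Meox2* (1.63 ± 0.08), *Smoc1* (1.45 ± 0.13), *Nrtn* (1.29 ± 0.10), *Osr2* (1.23 ± 0.13), *Grem1* (1.04 ± 0.13) and *Osr1* (0.78 ± 0.12) were higher. *Scx* is not particular to *Sostdc1* cells, with 62.2 to 171 CPM (median 100.2) in *Gsc* cells against 49.1 to 160.1 (median 103). The medians of *Ebf1* (66.8 against 44.7 CPM) and *Ebf3* (38.6 against 25.4 CPM) were higher in *Gsc* cells than in *Sostdc1* cells. Cartilage genes were lower, 12 of 13 and none higher, with the cartilage collagen *Col2a1* at -1.17 ± 0.09, *Sox9* at -0.77 ± 0.07 and *Creb5* at -1.50 ± 0.10. *Gsc*, by which the comparison cells were chosen, is itself on the cartilage list, so this count is not independent of that choice. Of 13 proximal genes 10 were lower, with *Irx3* at -1.09 ± 0.07 and *Irx5* at -1.03 ± 0.07, and all 8 anterior genes tested were lower, with *Alx4* at -1.62 ± 0.11. *Cxcl12* was lower too (-0.75 ± 0.07). By the rule for named genes *Igfbp5* (-1.68), *Slco3a1* (-1.37), *Dcx* (-1.30), *Sned1* (-1.30), *Msx2* (-1.32), the Hox genes *Hoxc6* (-1.55) and *Hoxb4* (-1.28) and *Rspo2*, a secreted enhancer of WNT signalling (-1.28), were lower as well. *Rnd3* (0.78), *Sertad4* (0.71), *Cited1* (0.63), *Twist2* (0.63), *Gm34030* (0.62) and *Mycn* (0.58) were higher. In the order of the *Hgf* level, the medians thus were 34.4 CPM in *Sostdc1* cells, 21.5 in *Gsc* cells, 20.1 in *Osr1* cells and 14.8 in *Sostdc1*-0 cells. The *Osr1* and *Gsc* cells are subsets of the *Sostdc1*-0 cells and share cells with each other, and the middle pair of this order was not tested against each other. With only cells of the middle depth of the *Sostdc1* cells in each library, 2458 genes were called against *Gsc* cells.

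The *Sostdc1* cells with at least 1 *Hgf* UMI were then compared with those without, in the 7 libraries with at least 20 cells of each. *E1C8*Δ/Δ replicate 1 (14 and 6 cells) and *E1C5*Δ/Δ replicate 2 (16 and 14 cells) did not enter. Of 10793 genes 326 (3.02%) passed, 145 higher and 181 lower in cells with *Hgf*. The cells with *Hgf* had higher *Meox2*, *Irx3*, *Scx* and *Smoc1* and lower levels of posterior genes such as *Dkk1*, *Tbx2*, *Tbx3* and *Hand2*. They were also deeper, with a median of 24159 to 65078 UMIs per library against 17781 to 53631, and with cells of the middle depth alone 96 genes passed.

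*Meox2* had 50.2 to 189 CPM (median 107) in cells with *Hgf* and 22.8 to 67.2 (median 47.3) in cells without, higher in 7 of 7 libraries (log2 fold change 1.13 ± 0.10, adjusted p = 3.62e-08). *Smoc1*, a matricellular BMP antagonist, had 12.0 to 39.0 CPM (median 21.6) against 4.45 to 10.9 (median 7.74), without overlap (1.42 ± 0.15, adjusted p = 2.12e-07). *Irx3* had 38.2 to 70.4 CPM against 10.9 to 54.6 (1.15 ± 0.15). The cells with *Hgf* also held more *Nrtn* (1.04 ± 0.13), *Ebf2* (0.80 ± 0.12), *Gas1*, a Hedgehog co-receptor (0.76 ± 0.07), *Igfbp2* (0.76 ± 0.11) and *Scx* (0.60 ± 0.08). *Osr2* (0.86 ± 0.14) lost its call with DESeq2, and *Zbtb16* (0.76 ± 0.12) with cells of the middle depth. *Spats2l* (0.70) was the remaining higher gene named by the rule, and *Gm34030* (-1.25), *Dok4* (-0.82, lost with cells of the middle depth) and *Snai1* (-0.77) were lower. *Npr3* was not called (0.05 ± 0.22), nor was *Gsc* (0.26 ± 0.12) or *Grem1* (0.81 ± 0.23, adjusted p = 0.0565).

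*Dkk1* had 2.27 to 14.2 CPM (median 5.81) in cells with *Hgf* and 14.6 to 31.8 (median 24.8) in cells without, with no overlap between the groups (log2 fold change -1.99 ± 0.19, adjusted p = 7.33e-08). *Tbx2* likewise did not overlap, with 10.6 to 17.1 against 26.7 to 73.8 CPM (-1.63 ± 0.11). *Hand2*, which activates *Shh* in the posterior bud, had 102 to 176 against 142 to 314 CPM, lower in 7 of 7 libraries (-0.78 ± 0.05, adjusted p = 1.20e-11). *Hoxd12* (-1.47 ± 0.10), *Prdm1* (-1.17 ± 0.16), *Tbx3* (-0.95 ± 0.07) and the lncRNA gene *Hand2os1* (-1.42 ± 0.08), which lies head to head with *Hand2*, fell as well. Whether the reads of *Hand2os1* are fully separate from those of *Hand2* was not tested. In all, 9 of 10 posterior genes were lower and none higher (median -0.86, against 0.00 over all genes, of which 3.02% were called), and *Hhip* did not pass (0.06 ± 0.34). Of 7 anterior genes 5 were higher and none lower (median 0.62). The call of *Alx4* (0.78 ± 0.18) was lost without doublets, in the middle depth and without Wt replicate 2, and that of *Gli1* (-0.50 ± 0.12) with DESeq2, in the middle depth, without doublets and without Wt replicate 1 or *E1C5*Δ/Δ replicate 3. *Ptch1* (-0.31 ± 0.07) lost it with DESeq2 and in the middle depth.

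Of 10 BMP targets 4 were lower in cells with *Hgf* and none higher. *Id3* had 72.6 to 233 against 169.9 to 336 CPM (-0.73 ± 0.09) and *Id1* 135 to 274 against 196 to 359.6 CPM (-0.61 ± 0.06), both lower in 7 of 7 libraries though their ranges overlap. *Bmp4* was lower (-0.55 ± 0.09). Of 22 tendon and connective tissue genes 7 were higher and 2 lower, the latter being *Osr1* (-0.46 ± 0.08) and *Col1a1* (-0.27). The call of *Osr1* was lost in the middle depth. That of *Col1a1* was lost with DESeq2, in the middle depth and without Wt replicate 2 or 3 or *E1C5*Δ/Δ replicate 1 or 3. None of 17 cell cycle genes or of 9 stress genes passed, where 3.02% of all genes did, so that this is no result about these lists.

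**Figure D4:**
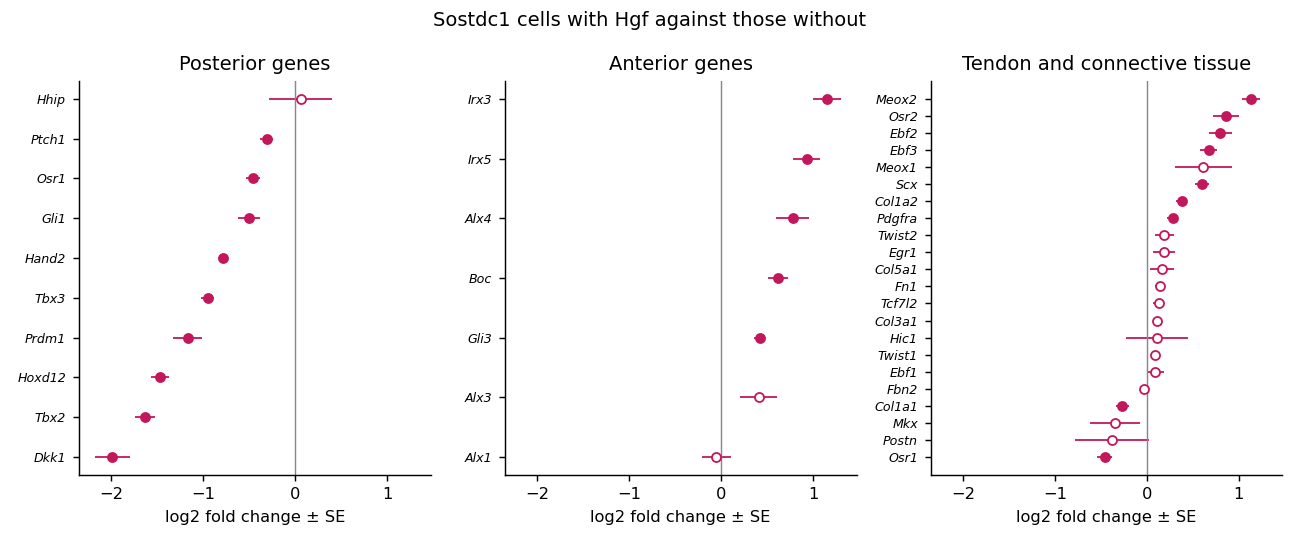
Log2 fold change ± SE (edgeR, 7 libraries) of *Sostdc1* cells with *Hgf* against those without, for the posterior, anterior and tendon and connective tissue lists. Filled points passed an adjusted p of 0.05. Of the posterior genes 9 lie to the left of 0 as filled points, and of the anterior genes 5 lie to the right.

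The genotype comparison asked whether the *Sostdc1* cells change where *Grem1* enhancers are deleted. Their thinned share of the mesenchymal cells was 0.728%, 0.679% and 2.01% in Wt, 0.752%, 1.34% and 1.54% in *E1C8*Δ/Δ and 0.509%, 0.337% and 0.320% in *E1C5*Δ/Δ. With all criteria read on thinned counts, these shares rest on few *Sostdc1* cells. Their mean number over the draws was 29.1, 37.7 and 11.7 in Wt, 2.86, 81.9 and 89.8 in *E1C8*Δ/Δ and 14.0, 5.34 and 22.2 in *E1C5*Δ/Δ. All 3 *E1C5*Δ/Δ libraries lay below all Wt libraries (0.388% ± 0.104 against 1.14% ± 0.752, SD, n = 3; exact permutation p = 0.10, the smallest that 3 against 3 can give). *E1C8*Δ/Δ (1.21% ± 0.412) overlapped Wt, and the mutants together differed from Wt by -0.336 points (exact permutation p = 0.464), a value that Wt replicate 3 decides, since without it the difference was 0.0974. On all UMIs the shares were 5.40% ± 2.5, 4.38% ± 1.16 and 2.52% ± 0.903. The share of *Sostdc1* cells with *Hgf* differed by 3.19 points (24.9% ± 9.33 in Wt, 28.8% ± 0.811 in *E1C8*Δ/Δ, 27.5% ± 1.78 in *E1C5*Δ/Δ, SD, n = 3; exact permutation p = 0.476). It was -2.14 points without Wt replicate 3 and -0.638 points on all UMIs, so no direction can be given.

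The level of *Hgf* per *Sostdc1* cell pool did not pass either, with log2 fold changes of 0.02 ± 0.20 for *E1C8*Δ/Δ and 0.07 ± 0.20 for *E1C5*Δ/Δ against Wt (adjusted p = 0.978 and 0.989), values whose SE leaves room for modest changes. *Ebf2* (-0.22 ± 0.15), *Npr3* (0.89 ± 0.25, adjusted p = 0.121) and *Scx* (-0.71 ± 0.18, adjusted p = 0.0868) did not pass in the mutants together.

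Of 11025 genes, 84 (0.762%) differed between the mutants together and Wt, 32 higher and 52 lower. For *E1C8*Δ/Δ alone the number was 511 (4.63%; 213 and 298), and for *E1C5*Δ/Δ alone 33 (0.299%; 9 and 24). With sex as a covariate, where 11325 genes were tested, the counts were 0, 66 and 1, while 969 genes of the mutants together still had an unadjusted p below 0.05 in edgeR, against 1524 without the covariate. Sex and genotype overlap in these libraries, and why the counts differed was not tested. The male libraries alone leave 1 library of each mutant, so no value of a gene is given from them. They still count among the alternatives of single genes below. A call said to be lost under some alternative may have been lost only there. DESeq2 without the covariate called 107, 544 and 46 genes. The groups did not overlap in either direction in 28.8% of all genes for *E1C8*Δ/Δ, in 11% for *E1C5*Δ/Δ and in 3.88% for the mutants together.

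*Grem1*, the gene whose enhancers were deleted, had 34.6, 17.4 and 30.6 CPM in *Sostdc1* cells of Wt, 1.83, 8.07 and 7.36 in *E1C8*Δ/Δ and 17.0, 14.1 and 24.4 in *E1C5*Δ/Δ. All 3 *E1C8*Δ/Δ libraries lay below Wt, while those of *E1C5*Δ/Δ overlapped it. For GREM1 protein in whole forelimb buds the paper gives the other order, with more left in *E1C8*Δ/Δ than in *E1C5*Δ/Δ. The values here are RNA of the *Sostdc1* cells alone and do not rank the alleles. *Grem1* fell by 1.91 ± 0.28 on the log2 scale in *E1C8*Δ/Δ (adjusted p = 0.00177, with sex as a covariate 0.0149) and was at -0.42 ± 0.25 in *E1C5*Δ/Δ (adjusted p = 0.787). For the mutants together it was -1.17 ± 0.22 (adjusted p = 0.0232), a call that was lost without Wt replicate 1, Wt replicate 3 or *E1C5*Δ/Δ replicate 1, and with sex as a covariate (adjusted p = 0.336). Of 37 single genes called in *E1C8*Δ/Δ and followed through the alternatives, 4 kept their call under each. These were *Osr2*, *Snhg5*, *Gm11361* and *Eif3j2*, so the *E1C8*Δ/Δ call of *Grem1* was also lost under some alternative.

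*Osr2*, an odd-skipped gene of connective tissue, had 67.9, 44.2 and 48.1 CPM in Wt, 8.26, 11.5 and 11.3 in *E1C8*Δ/Δ and 21.9, 33.6 and 12.3 in *E1C5*Δ/Δ. All 6 mutant libraries lay below all 3 Wt libraries. In *E1C8*Δ/Δ it fell by 2.25 ± 0.28 (adjusted p = 3.06e-04), a call that no alternative removed (0.00673 with sex as a covariate). In *E1C5*Δ/Δ it was -1.40 ± 0.26 (adjusted p = 0.0392). This call was lost with sex as a covariate and on the omission of any one library other than *E1C5*Δ/Δ replicate 2. *Osr1* was lower in the mutants together (-0.62 ± 0.13, adjusted p = 0.0404). That call was lost with sex as a covariate and on the omission of any one library other than *E1C5*Δ/Δ replicate 3.

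*Tcf7l2* had 190.0, 157 and 209 CPM in Wt and 74.4 to 109 CPM in the 6 mutant libraries, without overlap (log2 fold change -0.94 ± 0.14 for *E1C8*Δ/Δ and -0.95 ± 0.14 for *E1C5*Δ/Δ). With sex as a covariate its adjusted p in *E1C8*Δ/Δ was 0.0398, and that in *E1C5*Δ/Δ was 0.300. *Smoc1* had 26.9, 21.6 and 24.5 CPM in Wt, 6.42, 9.88 and 11 in *E1C8*Δ/Δ (-1.27 ± 0.18, adjusted p = 0.00121, with the covariate 0.0201) and 12.0, 14.1 and 16.4 in *E1C5*Δ/Δ (-0.73 ± 0.17, adjusted p = 0.0916). *Meox2* was lower in *E1C5*Δ/Δ, with 52.5, 47.7 and 41.2 CPM against 108, 91.8 and 123 in Wt (-1.14 ± 0.15, adjusted p = 0.00518, with the covariate 0.174), and had 73.4, 92.0 and 84.8 CPM in *E1C8*Δ/Δ (-0.32 ± 0.14, not called).

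*Rspo3*, a secreted enhancer of WNT signalling, was higher in *E1C5*Δ/Δ, with 108, 108 and 124 CPM against 49.3, 65.8 and 57.2 in Wt and 56.0, 52.4 and 44.0 in *E1C8*Δ/Δ (1.01 ± 0.14, adjusted p = 0.00518, with the covariate 0.174). The BMP target *Id3* was higher in *E1C8*Δ/Δ, with 392, 279.6 and 254 CPM against 161, 131 and 163 in Wt (1.01 ± 0.13, adjusted p = 7.11e-04, with the covariate 0.0174), and *E1C5*Δ/Δ had 149, 156 and 168 CPM. The *E1C8*Δ/Δ calls of *Id3* and *Smoc1* were also lost at a threshold of 3 *Sostdc1* UMIs. *Bambi*, a BMP pseudoreceptor and target, was higher in *E1C8*Δ/Δ as well (0.84 ± 0.13, with the covariate 0.85 and adjusted p = 0.0312). The *E1C8*Δ/Δ calls of *Bambi* and *Tcf7l2* were each lost under some alternative. *Hand2* was lower in *E1C8*Δ/Δ, with 145, 122 and 133 CPM against 212, 207 and 227 in Wt (-0.69 ± 0.11, adjusted p = 0.00272, with the covariate 0.0529). *Ptch1*, the receptor and target of SHH, was at -0.84 ± 0.17 in *E1C8*Δ/Δ (adjusted p = 0.0121, with the covariate 0.0437), a call lost without *E1C8*Δ/Δ replicate 3.

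By list, 3 of 10 BMP targets were higher in *E1C8*Δ/Δ and none lower, and 5 of 10 posterior genes and 5 of 22 tendon and connective tissue genes were lower and none higher. Of these, *Msx1* (1.20) lost its call without any one *E1C8*Δ/Δ library or Wt replicate 1 or 2, *Hoxd12* (-1.07) without any one *E1C8*Δ/Δ library, *Gli1* (-0.86) without any one *E1C8*Δ/Δ library or Wt replicate 1 or 2, and *Hhip* (-1.79) without any one Wt library, *E1C8*Δ/Δ replicate 2 or 3 or *E1C5*Δ/Δ replicate 1 or 2. *Hhip* was low, at a mean of 1.75 against 3.45 CPM in Wt. For it 1 *E1C8*Δ/Δ library lay above all Wt libraries and 2 lay below them. With sex as a covariate *Id3*, *Bambi*, *Ptch1*, *Osr2*, *Tcf7l2* and *Fn1* were still called among the genes of these 3 lists. In *E1C5*Δ/Δ none of the BMP targets was called, and the 5 lower genes of tendon and connective tissue were *Col1a2*, *Meox2*, *Osr1*, *Osr2* and *Tcf7l2*, of which *Osr1* is also the 1 posterior gene. Each of these *E1C5*Δ/Δ calls was lost with sex as a covariate. Of the 8 tested genes on the HGF and MET list none was called in either mutant, which at shares of 4.63% and 0.299% of all genes is no result about the list. Erythroid markers summed to 166 to 14349 CPM in *E1C8*Δ/Δ and to 304 to 4461 CPM in Wt, none of them called, and stress genes to 2946 to 3219 against 2876 to 2966 CPM, with 2 of 9 called higher in *E1C8*Δ/Δ. Schwann and neural crest markers summed to 43.1 to 45.3 CPM in *E1C8*Δ/Δ, below the 55.7 to 63.3 CPM in Wt. Most of that sum was *Ets1* (a mean of 40.0 against 55.0 CPM), the 1 gene of the list tested, which was called lower (-0.45, adjusted p = 0.0378, with the covariate 0.160), a call lost without doublets and without any one *E1C8*Δ/Δ library, Wt replicate 1 or 2 or *E1C5*Δ/Δ replicate 1. Epithelial markers (12.0 to 14.9 against 9.42 to 10.4 CPM) and flank and somite markers (25.2 to 45 against 19.8 to 24.7 CPM) were higher in each *E1C8*Δ/Δ library than in each Wt library. In *E1C5*Δ/Δ, stress genes (2802 to 2849.5 CPM) and myeloid markers (0.707 to 0.936 against 1.22 to 4.05 CPM) lay below Wt in each library. Their part in the genotype comparison was not tested.

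**Figure D5:**
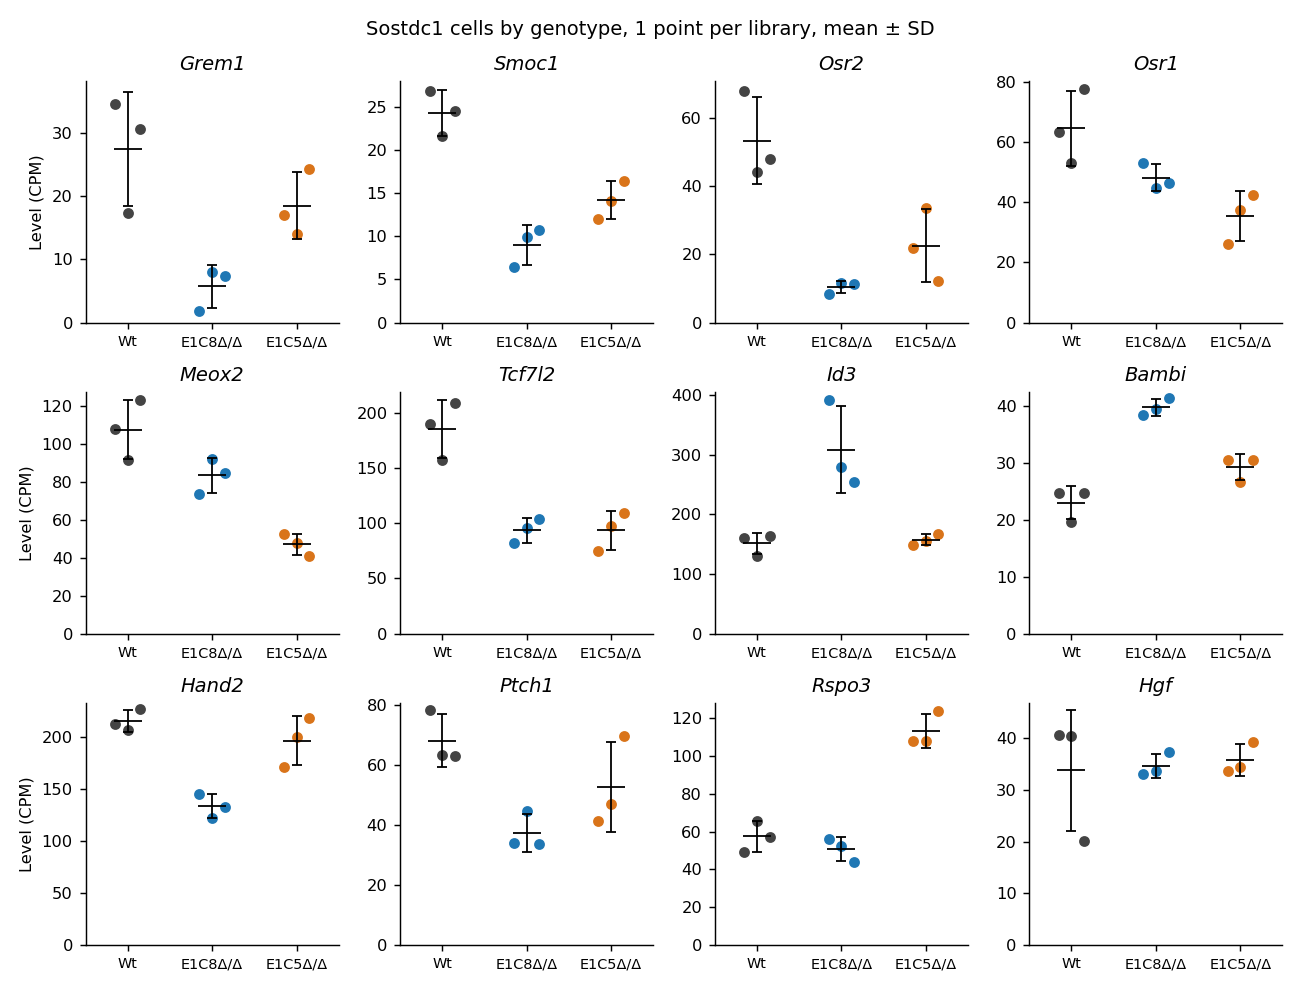
Level (CPM) of 12 genes in the summed *Sostdc1* cells of each library by genotype, with the mean ± SD of the 3 libraries. *Osr2*, *Tcf7l2* and *Smoc1* lie lower in both mutants than in Wt in every library, *Id3* higher in *E1C8*Δ/Δ, *Bambi* higher in both mutants, *Rspo3* higher in *E1C5*Δ/Δ, and *Hgf* overlaps among the genotypes.

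Among the largest changes by fold in *E1C8*Δ/Δ were genes that no list here holds, and 3 of the 5 largest decreases were histone genes, which are transcribed as cells copy their DNA. *Hist1h2ap* had 36.7, 71.0 and 323 CPM against 496, 1427 and 2083 in Wt (-3.11 ± 0.65), and *E1C5*Δ/Δ had 643, 919 and 268. *Hist1h4h* (a mean of 8.22 against 61.9 CPM, -2.66 ± 0.53) and *Hist1h2ai* (1.74 against 6.68 CPM, -2.52 ± 0.52) were lower as well. These 3 calls were lost with sex as a covariate, at a threshold of 3 *Sostdc1* UMIs and without *E1C8*Δ/Δ replicate 2, and each also without another library. *Mki67*, a marker of cycling cells, was the 1 of 17 cell cycle genes called, a share near the 4.63% of all genes, and had 157, 197 and 177 CPM against 306, 281 and 240.3 in Wt (-0.62 ± 0.13, adjusted p = 0.0149, with the covariate 0.0911), a call also lost without Wt replicate 2 or *E1C8*Δ/Δ replicate 1 or 3. Others of that list went both ways and did not pass. *Rrm2* (0.30), *Ccnb2* (0.28) and *Pcna* (0.24) had higher values in each *E1C8*Δ/Δ library than in every Wt library. *Top2a* (-0.45), *Mcm2* (-0.32) and *Mcm3* (-0.22) had lower values in each. The part of cycling or of RNA capture in the *E1C8*Δ/Δ calls was not tested.

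*Snhg5*, a host gene of small nucleolar RNAs, had 148, 148 and 183 CPM against 40.5, 34.4 and 27.9 in Wt (2.22 ± 0.19), and the pseudogene *Gm11361* had 179, 178 and 189 against 44.9, 48.2 and 20.8 (2.21 ± 0.22). *Eif3j2*, a near copy of *Eif3j1*, had 4.59, 1.41 and 2.68 against 51.3, 16.2 and 29.4 CPM (-3.68 ± 0.54), and reads of such copies may be assigned to either. No alternative removed these 3 calls. *Gm10076* had 93.6, 116 and 311 against 750.0, 1252 and 1637 CPM (-2.74 ± 0.45), and *Cox4i2* (2.22 ± 0.38) and *Gm11508* (2.63 ± 0.58) were higher, the last at no more than 5.50 CPM. The calls of *Cox4i2* and *Gm11508* were lost with sex as a covariate, and that of *Gm10076* under some alternative. *Gm10320* had 82.6, 76.9 and 81.4 CPM in *E1C8*Δ/Δ, 2.09 to 2.5 in Wt, and 174, 106 and 0.819 in *E1C5*Δ/Δ, so that it split the replicates of that mutant. In *E1C5*Δ/Δ the lower genes included *Fgf18* (-2.87) and *Igfbp3* (-2.38), both under 20 CPM in every library. Their calls were lost without *E1C5*Δ/Δ replicate 1 or 3, with sex as a covariate and, for *Fgf18*, also without Wt replicate 2. The others named by the rule in *E1C5*Δ/Δ were *B230312C02Rik* (4.04), *Pou4f1* (2.90), *Epha3* (1.03) and *Lmo1* (0.78), which were higher, and *Mmrn2* (-2.79), *H2-D1* (-2.53) and *Angptl1* (-2.05), which were lower. Most were low genes: *B230312C02Rik* had a mean of 3.89 against 0.202 CPM in Wt, *Pou4f1* 4.39 against 0.714 and *Mmrn2* 0.626 against 6.27. *H2-D1* had 1.78 against 11.1 and *Angptl1* 1.84 against 9.72. Each of these *E1C5*Δ/Δ calls was lost at least with sex as a covariate. For the mutants together the genes named by the rule were *Cox4i2* (1.96), *Nap1l5* (1.31), *Tfpi* (1.27), *Epha3* (0.91), *Rarb* (0.82), *Lbp* (-2.20), *4930412C18Rik* (-2.19), *Fgf18* (-1.97), *Eif3j2* (-2.91) and *Osr2* (-1.82). Here too some were low, such as *Lbp* (a mean of 1.19 against 6.34 CPM), *4930412C18Rik* (0.414 against 2.44) and *Nap1l5* (3.64 against 1.56). Each call for the mutants together was lost with sex as a covariate and all but those of *Eif3j2*, *Lbp* and *Osr2* also without at least 1 library.

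Whether the *Sostdc1* cells answered to the deletions in another way than the *Sostdc1*-0 cells was tested by the interaction of genotype with the choice of cells. Of 12812 genes, 14 (0.109%) passed, 6 with a positive and 8 with a negative difference, and *Meox2* and *Sox9* were among them. *Meox2* in *Sostdc1* cells fell by 0.42 ± 0.07 more on the log2 scale than in *Sostdc1*-0 cells, where it had 43.3 to 50.4 CPM in Wt, while *E1C5*Δ/Δ had 25.8 to 33.5 CPM. This call was lost without *E1C5*Δ/Δ replicate 3. For *Osr2* (0.08 ± 0.14), *Grem1* (-0.14 ± 0.15) and *Hgf* (-0.20 ± 0.10) a difference between the sets of cells did not pass. In *Sostdc1*-0 cells *Osr2* had 50.5 to 63.7 CPM in Wt and 8.15 to 16.1 in *E1C8*Δ/Δ.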

How the data were processed

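Single-cell transcriptomes of forelimb buds were measured on a droplet platform in 9 libraries, described by the methods as biologically independent replicates. The authors aligned the reads to mm10 with Cell Ranger 6.0.1 and deposited UMI counts per gene and barcode, before their own cell filters. The submitters' processing notes also name Seurat 4.3.0.1, which was not used here. Cells were chosen from these counts with the criteria given in the report. The cells and gene lists were chosen with earlier results of these data known.

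Counts were summed per library and set of cells (at least 20 cells) and fitted with edgeR 4.0.16 (filterByExpr, TMM, quasi-likelihood test) in R 4.3.3, with the library as a block between sets of cells and adjusted p below 0.05 as threshold. Genes of the rule were not tested, nor X- and Y-linked genes between genotypes. DESeq2 1.42.0 was an alternative. Shares were compared after thinning each cell to 10000 UMIs (mean of 50 draws). The fits were also run on simulated counts with known changes, and the outcome is not reported here. Doublets were scored per library with simulated doublets in Python 3.11.15. Erythroid cells held at least 3 UMIs of *Alas2*. The sex of each library was inferred from *Xist* and from genes of the Y chromosome. Between sets of cells, the 10 largest changes per direction were named among called genes with a mean of at least 20 CPM and 1 direction in all libraries, between genotypes the 5 largest whose mutant libraries all lay on 1 side of Wt, besides genes of 26 lists. The *Sostdc1* cells held 1090081 to 11999463 UMIs per library, and intervals and p-values cover counting error and the spread between these libraries only. Alternatives were doublets left out, a threshold of 3 *Sostdc1* UMIs, cells of middle depth (between the quartiles of the *Sostdc1* cells of the library), no filter on low counts, other scaling, sex as a covariate, a replicate block and each library left out. Between genotypes the male libraries alone were a further alternative.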

Additional observations from a re-analysis of the deposited data

Results flagged for a closer look

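In 14 genes the difference between the mutants and Wt was itself different in *Sostdc1* and *Sostdc1*-0 cells, by the interaction term of edgeR's quasi-likelihood fit. Values are the mutant effect in *Sostdc1* cells minus that in *Sostdc1*-0 cells on the log2 scale. The interaction was not fitted with sex as a covariate, without doublets, in the middle depth or with DESeq2. *Nkd2*, an inhibitor of WNT signalling (-0.73, adjusted p = 0.00295), and *Cdc42ep3* (0.73, adjusted p = 0.00500) kept their calls whichever library was left out. *Meox2* (-0.42) lost it without *E1C5*Δ/Δ replicate 3, and *Sox9* (0.55) without *E1C5*Δ/Δ replicate 3 or *E1C8*Δ/Δ replicate 3. *Sox9* in *Sostdc1* cells had 204, 185 and 144 CPM in Wt and 120.0 to 220.2 in the mutants, against 325, 291 and 401 in Wt and 116 to 276 in the mutants in *Sostdc1*-0 cells. The differences were 0.47 for *Ebf1*, 0.29 for *Lmo4*, -0.56 for *Igf1*, -0.33 for *Rnd3*, -0.34 for *Scube1* and 1.27 for *Acp5*, each lost without at least 1 of the libraries.

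The remaining 4 genes are of blood cells. The platelet and megakaryocyte genes *Pf4* (-4.95), *Rgs18* (-7.45) and *Clec1b* (-6.05) rest on few UMIs in few cells: *Pf4* had 151 CPM in Wt replicate 1 and 0 to 75.2 in the other libraries, and *Rgs18* had 3.92 CPM in Wt replicate 1, 0.403 in *E1C8*Δ/Δ replicate 2 and 0 in the other 7. The call of *Pf4* was lost without Wt replicate 1. The globin gene *Hbb-bs* (2.94) had 315 CPM in *E1C5*Δ/Δ replicate 3 and 0 to 62.9 in the other libraries, and its call was lost without that library or Wt replicate 2. The source of these transcripts was not tested.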

How the results depend on the processing

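The difference in the share with *Hgf* between *Sostdc1* and *Sostdc1*-0 cells kept its direction and its call under the alternatives run, and so did the count of genes within 1.5 times (1407 to 2112). The mutant difference in the share of *Sostdc1* cells ran from -0.566 to 0.0974 points with 1 library left out, and that in their share with *Hgf* from -2.14 to 6.54, and -0.638 on all UMIs. Against *Osr1* cells 423 to 793 genes were called with 1 library left out, and against *Gsc* cells 2458 in the middle depth. Between cells with and without *Hgf* the count was 96 in the middle depth, where fewer cells and 5 libraries entered, 534 without the filter on low counts and 141 with DESeq2.

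For the mutants together, *E1C8*Δ/Δ and *E1C5*Δ/Δ, the counts were 16, 99 and 17 at a threshold of 3 *Sostdc1* UMIs, 390, 965 and 254 without the filter on low counts, 0, 66 and 1 with sex as a covariate, and 8, 35 and 1 in the male libraries alone, an alternative chosen after seeing the data in which each mutant has 1 library, assumed to vary like the 3 of Wt. With 1 library left out they ran from 19 (without Wt replicate 3) to 149 (without *E1C5*Δ/Δ replicate 3), from 119 (without *E1C8*Δ/Δ replicate 2) to 805 (without *E1C5*Δ/Δ replicate 3), and from 12 (without Wt replicate 3) to 33. The interaction count was 114 without the filter and ran from 6 (without *E1C5*Δ/Δ replicate 3) to 26 (without Wt replicate 1). The cause of these changes was not tested.

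With the replicate number as a block the counts were 23, 208 and 10, and the exact p of both shares 0.481 and 0.556. Same-numbered libraries correlated at -0.114 to 0.068, and libraries of other numbers at -0.167 to 0.249. Whether the numbers pair the libraries cannot be told from these values. Among single genes, *Fgf9* between *Sostdc1* and *Sostdc1*-0 cells (0.03) and *Tbx15* between cells with and without *Hgf* (-0.00) changed sign in the middle depth. The small libraries limit the genotype comparisons, with 20 cells in *E1C8*Δ/Δ replicate 1.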
